A study of Mus musculus with 18 samples.

Results

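The 10 genes described here are the 5 costimulatory receptors Cd40, Tnfrsf4 (OX40), Tnfrsf9 (4-1BB), Tnfrsf18 (GITR) and Cd27 and their 5 ligands Cd40lg, Tnfsf4 (OX40L), Tnfsf9 (4-1BBL), Tnfsf18 (GITRL) and Cd70. They were chosen by name, as receptor and ligand pairs of the TNF family, out of 50600 genes in the deposited count table. The rule itself uses no measured value, but earlier results of these data were known when the genes were chosen. RNA was sequenced from B16F10 melanoma tumors grown under the skin of C57BL/6 mice and collected 24 h after the last intratumoral injection. The B16F10 line comes from a mouse melanoma. CDN2 (CL656 in the sample labels) is a cyclic dinucleotide that activates STING, an innate sensor that induces type I interferons and NF-kB targets, and exoCDN2 is the same compound carried by extracellular vesicles (EVs), which per the study came from HEK293, a human embryonic kidney line. One dose of PBS, unloaded EVs, CDN2 (20 µg), CDN2 (100 µg) or exoCDN2 (0.1 µg) was given to 5 groups, and 2 doses 3 days apart of PBS, CDN2 (20 µg) or exoCDN2 (0.1 µg) were given to 3 more. A ninth group received 2 doses of CDN2 of an amount its labels do not give. Each group held 2 tumors, 18 in all, and every tumor carried the same cell line in the same mouse strain. The labels do not say that the 2 tumors of a group came from different mice or were injected on the same day, so the p-values measure the spread between these samples. CDN2 and exoCDN2 differed both in vesicle loading and in amount, and tumors given 2 doses were also collected later, so these differences cannot be told apart.

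Costimulatory TNF family receptors signal when a trimeric ligand on a neighbouring cell clusters them, and they recruit TRAF adaptors that lead to NF-kB. CD40 sits mainly on antigen presenting cells and is engaged by CD40L on activated helper T cells. OX40, 4-1BB and GITR are induced or raised on activated T cells and on regulatory T cells, CD27 is already present on naive T cells, and their ligands are found largely on activated antigen presenting cells, with some also on stromal or tumor cells. In whole tumor RNA, fewer cells of a type and less RNA per cell cannot be told apart.

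Total expected counts, the read counts that RSEM assigns to genes, lay between 21608895 and 65983630 per tumor. Levels are given as CPM, a gene's count scaled to the size of its library with TMM normalization over all 18 tumors. Differences are log2 fold changes from edgeR's quasi-likelihood model of 16 tumors in 8 groups, with Benjamini-Hochberg adjustment over the 16927 genes that passed a filter on low counts. A gene was called changed when the adjusted p was under 0.05 and the ratio over 2. The paired tumors of a group correlated least after 2 doses of CDN2 (20 µg) (Pearson's r across genes 0.943, with 27.9% of genes over 2-fold apart) and most after 1 dose of PBS (0.991). All 7 melanocyte lineage markers were detected in every tumor. With groups of 2, exact permutation of the tumors gives a two-sided p of 0.333 at the least, and edgeR's test instead draws on a spread estimated over the 8 groups.

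Of the 10 genes, 8 passed the filter, and the ligands Cd40lg and Cd70 did not. Cd40lg had 0 to 6 counts per tumor and was at 0 in 9 of 18 tumors, its 6 counts being in the second tumor given 2 doses of exoCDN2. Cd70 had 0 to 3 counts per tumor and was at 0 in 2 tumors, both given CDN2 (100 µg). A count of 3, taken as the limit of detection, corresponded to between 0.0455 and 0.139 CPM, and no difference between groups was detectable for these ligands at this depth. Compared per length, as the median CPM per kb of exon over 18 tumors, Tnfsf9 was highest at 7.44, followed by Tnfrsf9 at 4.35, Cd40 at 1.81, Tnfrsf18 at 0.954, Tnfrsf4 at 0.581, Tnfsf18 at 0.363, Cd27 at 0.187 and Tnfsf4 at 0.132. The ranges of these genes over the tumors overlapped from each one to the next in that order. The 4-1BB pair was thus the pair with most transcript in B16F10 tumors, and Cd40 and Cd27 were receptors whose ligand transcript was at or near the limit of detection.

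**Figure D1:**
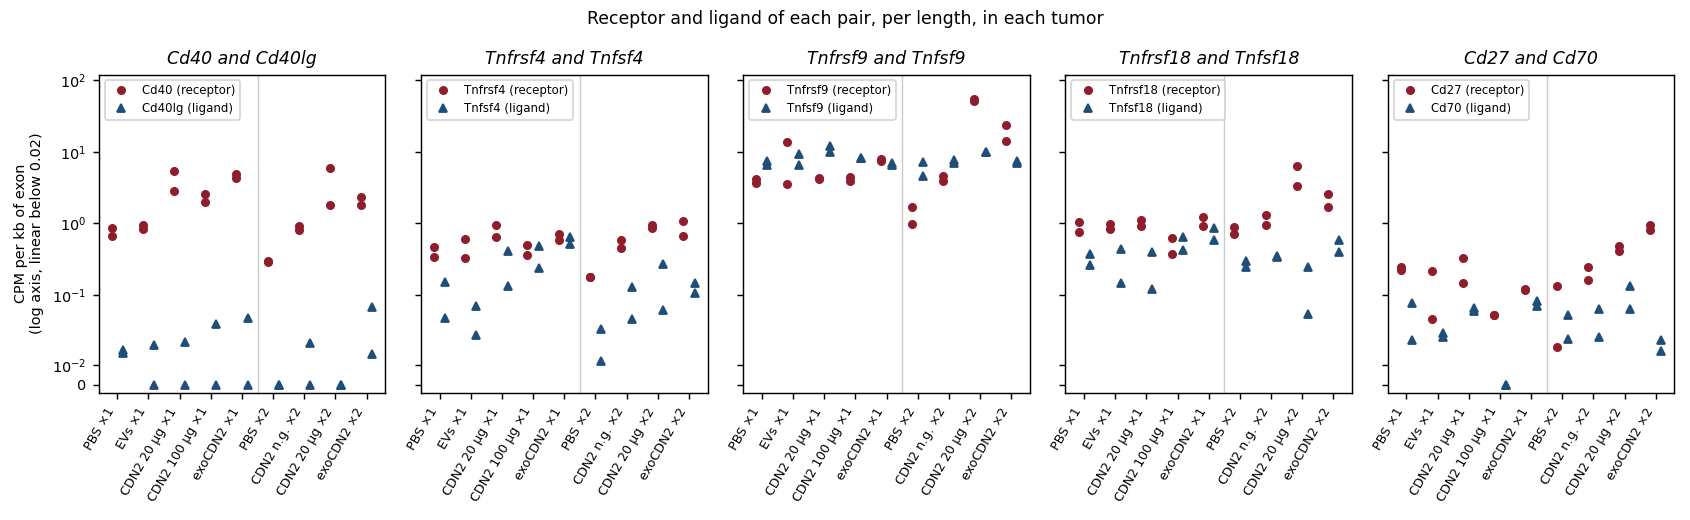
Receptor (red circles) and ligand (blue triangles) transcript of the 5 pairs in each of 18 tumors, as CPM per kb of exon on an axis that is logarithmic above 0.02 and linear below it; ×1 and ×2 are the number of doses and n.g. is the amount not given. Tnfrsf9 reached 54.7 and 51.3 CPM per kb after 2 doses of CDN2 (20 µg), above Tnfsf9 at 9.99 and 10.05 in the same tumors, while Cd40lg and Cd70 stayed at or near 0.

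Several members are neighbours in the genome (GRCm38). Tnfrsf4 (chr4:156013843-156016612) and Tnfrsf18 (chr4:156026164-156028895) are 9.6 kb apart, Tnfsf4 (chr1:161395409-161418410) and Tnfsf18 (chr1:161494655-161505290) are 76.2 kb apart, and Tnfsf9 (chr17:57105325-57107757) and Cd70 (chr17:57145997-57149777) are 38.2 kb apart, each with 0 protein coding genes between. Tnfrsf9 (chr4:150914562-150946102) is on the same chromosome as Tnfrsf4, 5067740 bases away. Cd40 (chr2:165055627-165072948), Cd27 (chr6:125232622-125237010) and Cd40lg (chrX:57212143-57224042) stand alone. Tnfrsf18 shared 414 exon bases with the antisense gene Gm16008, which had at most 8.20 counts in any tumor. Tnfsf9 shared 192 exon bases with the lincRNA Gm11110 (42 to 194 counts), and whether counting used strand is not given in the sources used here.

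RefSeq promoter windows of 300 bases (250 before and 50 after a transcription start, GRCm38.p6) were at hand for 5 of the 10 genes, with 2 windows for Tnfrsf9. The 2 Tnfrsf9 windows are printed because this receptor had the largest difference of the members after 2 doses of CDN2 and because its 2 start sites differ in the NF-kB motif, the letters bound by the factor that these receptors and STING activate. Capitals mark matches to that motif on either strand. The windows are chr4:150919905-150920204 and chr4:150927749-150928048, both on the plus strand.
Tnfrsf9, first start: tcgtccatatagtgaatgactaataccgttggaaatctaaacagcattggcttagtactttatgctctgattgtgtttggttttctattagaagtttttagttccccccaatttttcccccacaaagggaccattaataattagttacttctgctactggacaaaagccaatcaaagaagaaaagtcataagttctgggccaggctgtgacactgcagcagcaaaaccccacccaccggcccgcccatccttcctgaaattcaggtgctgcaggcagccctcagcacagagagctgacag
Tnfrsf9, second start: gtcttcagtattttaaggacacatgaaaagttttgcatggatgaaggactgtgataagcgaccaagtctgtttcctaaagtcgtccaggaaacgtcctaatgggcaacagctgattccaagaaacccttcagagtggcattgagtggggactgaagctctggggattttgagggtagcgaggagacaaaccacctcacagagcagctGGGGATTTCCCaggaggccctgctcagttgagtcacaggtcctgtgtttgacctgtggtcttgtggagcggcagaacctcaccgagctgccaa
The overlapping NF-kB matches of the second window began at -43 and -42 from the start site, and 8.49% of 32544 promoter windows held the motif. The first Tnfrsf9 window and those of Tnfrsf4, Tnfrsf18 and Cd27 held 0 matches to any motif searched. The Tnfsf18 window held TATAAA at -34 (in 13.6% of all windows), and the interferon-stimulated response element (TTTC, 2 bases, TTTC; 3.45% of all windows) had 0 matches in the 6. Such matches describe letters only.

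After 1 dose, Cd40 was the member that rose against PBS, with both CDN2 (20 µg) and exoCDN2. Cd40 stood at 2.30 and 2.95 CPM in the 2 PBS tumors and at 3.24 and 2.82 CPM with unloaded EVs. It was 9.49 and 18.5 CPM with CDN2 (20 µg), 6.78 and 8.68 CPM with CDN2 (100 µg), and 16.4 and 14.5 CPM with exoCDN2. All 6 tumors given the STING agonist were above all 4 tumors given PBS or EVs. Relative to PBS, Cd40 was 5.32-fold higher with CDN2 (20 µg) (log2 2.41 ± 0.47 SE, adjusted p = 0.013, edgeR) and 5.89-fold higher with exoCDN2 (log2 2.56 ± 0.47, adjusted p = 0.0099, edgeR). With CDN2 (100 µg) the difference was log2 1.56 ± 0.46, with an adjusted p of 0.11 by edgeR's test. Cd40 was 1 of 8 tested members changed by CDN2 (20 µg) and 1 of 8 by exoCDN2, where 3.14% and 2.62% of all tested genes were changed (2.26% and 2.2% higher), and 0 of 8 were changed by CDN2 (100 µg), against 2.46% of all genes and with 2549 genes at an unadjusted p under 0.05 (edgeR); DESeq2 called Cd40 there (log2 1.57, adjusted p = 0.021). These comparisons share the PBS tumors. The summed CPM of 5 neutrophil markers was 4.42 and 4.69 with PBS, 12.1 and 28.3 with CDN2 (20 µg) and 36.0 and 58.7 with exoCDN2. Of the 5, 1 was called with CDN2 and 2 with exoCDN2, and the neutrophil receptor gene Cxcr2 rose with both. Ccr7, a marker of mature dendritic cells, rose with exoCDN2 (log2 2.75, adjusted p = 0.0038, edgeR). It was the 1 changed of 7 tested dendritic cell markers, whose median was log2 -0.42. The part of these markers in the Cd40 values was not tested. Both Cd40 calls were lost without either PBS tumor (adjusted p from 0.096 to 0.16), that of CDN2 also without its second tumor (log2 1.85, adjusted p = 0.14) and that of exoCDN2 also without its first (log2 2.47, adjusted p = 0.057), all by edgeR's test.

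Tnfsf4, the OX40 ligand, had its highest levels of the series 1 day after exoCDN2. Tnfsf4 was 0.951 and 1.17 CPM there (48 and 51 counts), against 0.0875 and 0.277 CPM with PBS (4 and 14 counts) and 0.130 and 0.05 CPM with unloaded EVs (6 and 2 counts). With CDN2 it was 0.248 and 0.748 CPM at 20 µg and 0.439 and 0.890 CPM at 100 µg, below both exoCDN2 tumors. Tnfsf4 rose 11.3-fold with exoCDN2 relative to unloaded EVs (log2 3.49 ± 0.82, adjusted p = 0.037, edgeR), together with Cd40 (log2 2.35 ± 0.47, adjusted p = 0.015, edgeR), so 2 of 8 members were changed, against 2.95% of all genes (2.52% higher). Relative to PBS, Tnfsf4 differed by log2 2.51 ± 0.74 with an adjusted p of 0.10 by edgeR's test. Each of the 4 tumors of the comparison with EVs, left out in turn, ended both calls, with log2 values from 3.01 to 4.33 and adjusted p from 0.11 to 0.32 for Tnfsf4, the highest value being without the first EV tumor, and with log2 values from 2.26 to 2.46 and adjusted p from 0.056 to 0.15 for Cd40 (edgeR).

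The remaining members did not pass the test after 1 dose. Unloaded EVs changed 0 of 8 members and 0 of 16927 genes (0%) by edgeR's test, with a smallest adjusted p of 0.38 and 541 genes at an unadjusted p under 0.05. The 4-1BB receptor Tnfrsf9 showed the difference between the EV tumors: it was 9.61 CPM in the first and 37.6 CPM in the second (445 and 1505 counts), while the PBS tumors had 11.2 and 9.96 CPM. Tnfrsf9 was 20.0 and 21.5 CPM with exoCDN2, above the PBS tumors (log2 0.97 ± 0.47, adjusted p = 0.34, edgeR), and from 10.7 to 12.1 CPM in the 4 tumors given CDN2. Cd27, a receptor of naive and memory T cells, was 0.122 and 0.124 CPM with CDN2 (100 µg) and 0.278 and 0.276 CPM with exoCDN2, against 0.569 and 0.515 CPM with PBS. The Cd27 difference was log2 -2.11 ± 0.78 at 100 µg (adjusted p = 0.21, edgeR). In the same 100 µg tumors 4 of 10 T cell markers fell and the summed CPM of Cd3d, Cd3e and Cd3g was 0.268 and 0.371, against 3.24 and 4.58 with PBS, and the part of these markers in the Cd27 value was not tested.

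**Figure D2:**
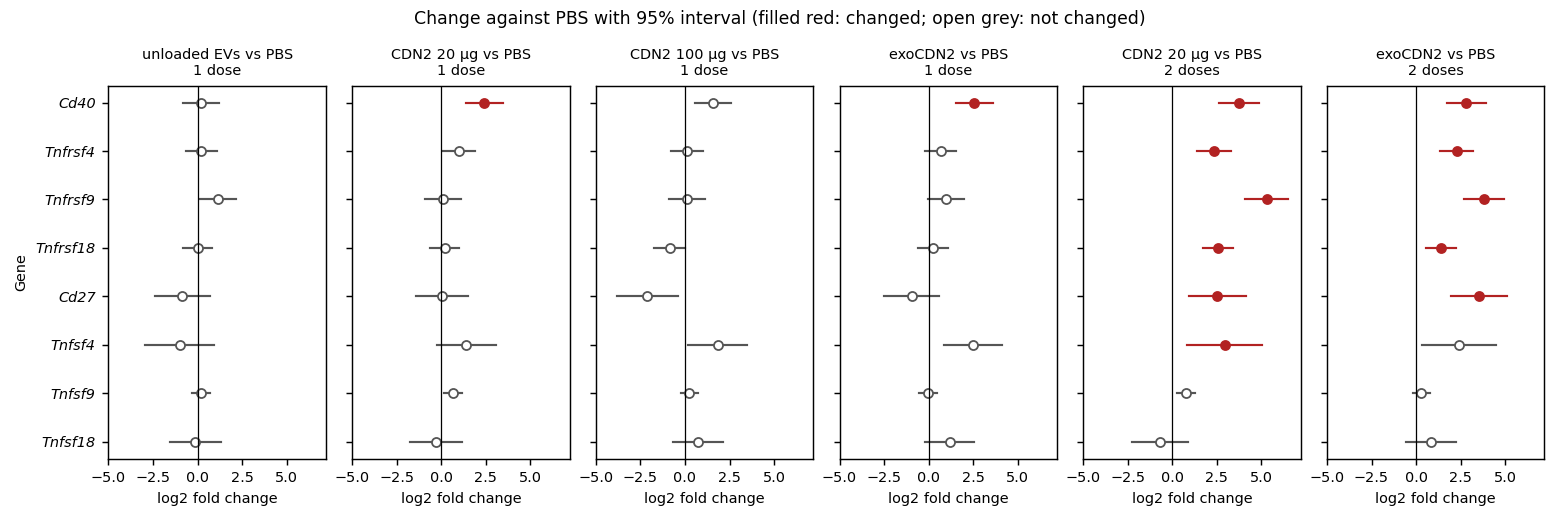
Log2 fold change of the 8 tested members against PBS of the same number of doses, with 95% intervals of edgeR's model (n = 2 tumors per group); filled red points were called changed. Cd40 was called in 4 of the 6 panels, and the other calls stand in the 2 panels of 2 doses.

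Between exoCDN2 and CDN2 (20 µg) after 1 dose, 0 of 8 members passed edgeR's test, where 0.608% of all genes did and 3302 genes had an unadjusted p under 0.05. For Cd40 the difference was log2 0.15, with a 95% interval from -0.81 to 1.10 that reaches about 2-fold in either direction. Tnfsf9, the 4-1BB ligand, was 9.04 and 8.33 CPM with exoCDN2 and 15.3 and 12.9 CPM with CDN2 (log2 -0.70 ± 0.22, adjusted p = 0.12, edgeR), and the groups did not overlap. CDN2 at 100 µg and at 20 µg gave 0 of 8 members changed (0.455% of all genes, 2797 at an unadjusted p under 0.05, edgeR), and the median difference of the members was log2 -0.63, against 0.01 over all tested genes. The GITR receptor Tnfrsf18 was 0.952 and 0.569 CPM at 100 µg and 1.41 and 1.72 CPM at 20 µg (log2 -1.04 ± 0.40, adjusted p = 0.22, edgeR).

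**Figure D3:**
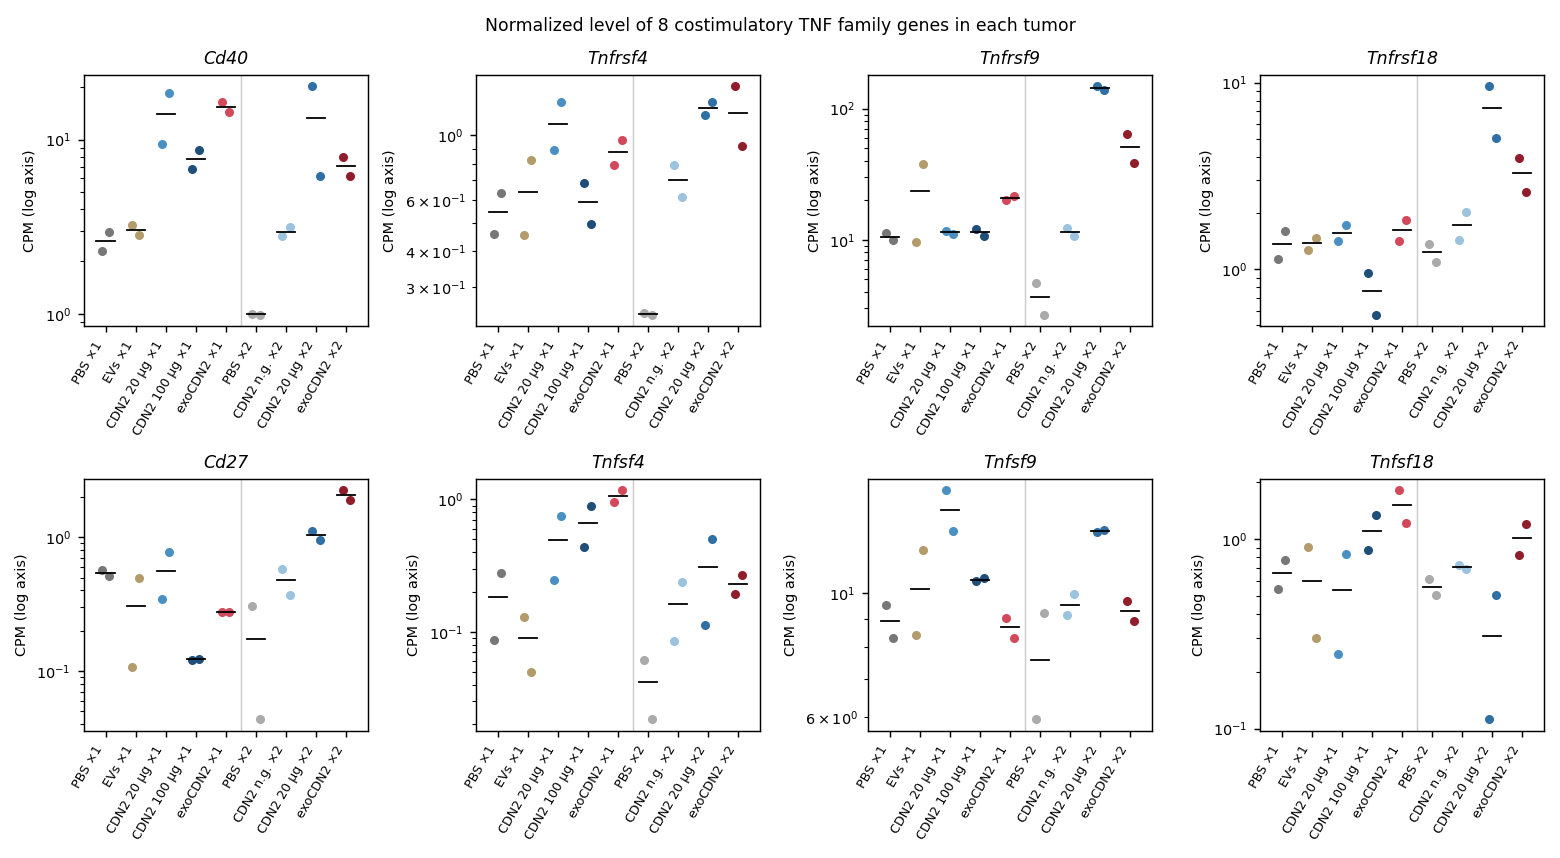
CPM of the 8 tested members in each of 18 tumors on log axes; points are tumors, bars the mean of 2 tumors, and the grey line separates 1 dose from 2. Tnfrsf9 was 149 and 139.7 CPM after 2 doses of CDN2 (20 µg), and Cd27 was highest after 2 doses of exoCDN2, at 2.24 and 1.89 CPM.

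After 2 doses, all 5 receptors rose against PBS with CDN2 (20 µg) and with exoCDN2, and of the ligands Tnfsf4 rose with CDN2. CDN2 changed 6 of 8 tested members, all higher, where 30.6% of all tested genes were changed and 20% were higher. exoCDN2 changed 5 of 8, all higher, where 11.3% of all genes were changed and 8.87% were higher. The median difference of the 8 members was log2 2.54 with CDN2 and 2.34 with exoCDN2, against 0 and 0.01 over all tested genes. The 2 comparisons share the PBS tumors of 2 doses, in which several members were lower than in the PBS tumors of 1 dose.

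Tnfrsf9, the 4-1BB receptor, had a larger difference than the other members with CDN2. With exoCDN2 it stood close to Cd27, which was above it without the first PBS tumor (log2 5.47 against at most 4.27). Tnfrsf9 was 4.67 and 2.67 CPM in the PBS tumors of 2 doses, 149 and 139.7 CPM with CDN2, and 64.1 and 38.8 CPM with exoCDN2. The mean was 144.3 ± 6.52 CPM (SD, n = 2) with CDN2 and 51.4 ± 17.9 CPM (SD, n = 2) with exoCDN2. The groups did not overlap, and Tnfrsf9 was 39.3-fold higher with CDN2 (log2 5.30 ± 0.55, adjusted p = 4.5e-05, edgeR) and 14.0-fold higher with exoCDN2 (log2 3.80 ± 0.52, adjusted p = 0.00047, edgeR). In the order of mean levels over the 9 groups, these 2 groups were followed by unloaded EVs, exoCDN2 of 1 dose, CDN2 of the amount not given, both single doses of CDN2, PBS of 1 dose and PBS of 2 doses. From CDN2 of the amount not given (11.5 ± 1.21 CPM) down to PBS of 1 dose (10.6 ± 0.874 CPM), neighbours in this order did not differ beyond their spread, and the EV group (23.6 ± 19.8 CPM) was not set apart from its neighbours either.

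Tnfrsf18, the GITR receptor, was 1.37 and 1.09 CPM with PBS, 9.58 and 5.04 CPM with 2 doses of CDN2, and 3.93 and 2.58 CPM with exoCDN2. It rose 5.91-fold with CDN2 (log2 2.56 ± 0.39, adjusted p = 0.00035, edgeR) and 2.63-fold with exoCDN2 (log2 1.40 ± 0.38, adjusted p = 0.024, edgeR). The exoCDN2 call for Tnfrsf18 was lost without its first tumor (log2 1.07, adjusted p = 0.22) and without the first or the second PBS tumor (adjusted p = 0.051 and 0.15, edgeR). Its neighbour Tnfrsf4, the OX40 receptor, was 0.245 and 0.241 CPM with PBS, 1.18 and 1.30 CPM with CDN2, and 1.48 and 0.916 CPM with exoCDN2. Tnfrsf4 was 5.09-fold above PBS with CDN2 (log2 2.35 ± 0.44, adjusted p = 0.0011, edgeR) and 4.87-fold with exoCDN2 (log2 2.28 ± 0.43, adjusted p = 0.0033, edgeR).

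Cd27 rose with both treatments, and its counts were low. Cd27 had 15 and 2 counts in the PBS tumors (0.306 and 0.0438 CPM), 20 and 36 with CDN2 (1.12 and 0.955 CPM) and 115 and 134 with exoCDN2 (2.24 and 1.89 CPM). It was 5.76-fold higher with CDN2 (log2 2.53 ± 0.74, adjusted p = 0.014, edgeR) and 11.5-fold higher with exoCDN2 (log2 3.52 ± 0.72, adjusted p = 0.0059, edgeR). Both values rested on the second PBS tumor, with its 2 counts: without it the log2 differences were 1.72 (adjusted p = 0.081) and 2.74 (adjusted p = 0.05), and without the first PBS tumor they were 4.45 and 5.47 (edgeR). Against all 4 PBS tumors as 1 group, Cd27 was no longer called with CDN2 (log2 1.52, adjusted p = 0.07) and was with exoCDN2 (log2 2.51, adjusted p = 0.016, edgeR), and its CDN2 call was also lost in a fit of the CDN2 and PBS tumors of 2 doses alone (log2 2.51, adjusted p = 0.071).

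Cd40 was 1.00 and 0.985 CPM with PBS, 20.3 and 6.15 CPM with CDN2 and 7.98 and 6.16 CPM with exoCDN2. All 4 treated tumors were above both PBS tumors, by 13.2-fold with CDN2 (log2 3.73 ± 0.51, adjusted p = 0.00019, edgeR) and 7.10-fold with exoCDN2 (log2 2.83 ± 0.49, adjusted p = 0.0022, edgeR). The first CDN2 tumor was far above the second, and without it the log2 difference was 2.62 (adjusted p = 0.00031, edgeR). With the 4 PBS tumors pooled, the log2 differences with CDN2 were 2.86 for Cd40, 1.65 for Tnfrsf4 and 4.35 for Tnfrsf9, those with exoCDN2 were 1.96, 1.59 and 2.85 in the same order, and all 6 passed edgeR's test.

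Of the 3 ligands tested, 1 passed the test after 2 doses. Tnfsf4 had 3 and 1 counts with PBS, 2 and 19 with CDN2 and 10 and 19 with exoCDN2. The CDN2 tumor with 2 counts had the lower depth. In CPM it was at 0.112, above the PBS tumors at 0.0612 and 0.0219, on counts at or under the limit of detection. Tnfsf4 was called higher with CDN2 (log2 2.93 ± 0.97, adjusted p = 0.025, edgeR) and not with exoCDN2 (log2 2.39 ± 0.95, adjusted p = 0.11, edgeR). Without the filter on low counts it was called with exoCDN2 (log2 2.40, adjusted p = 0.026, edgeR). That setting also called Tnfrsf9 for unloaded EVs against PBS (adjusted p = 6.3e-05, edgeR), where the tumors overlapped. As a ratio of summed counts, Tnfsf4 was 8.95 times PBS with CDN2, with an exact Clopper-Pearson 95% interval from 3.02 to 35.9, and 5.61 times with exoCDN2, from 1.97 to 22, intervals that cover counting error only. The Tnfsf4 call was lost without the second CDN2 tumor (log2 1.31, adjusted p = 0.47), without the first or second PBS tumor (log2 3.78 and 2.40, adjusted p = 0.06 and 0.13) and with the PBS tumors pooled (log2 1.55, adjusted p = 0.12, edgeR). Tnfsf9, the most abundant ligand, was 5.94 and 9.22 CPM with PBS, 12.89 and 12.97 CPM with CDN2 and 9.68 and 8.92 CPM with exoCDN2. Its difference with CDN2 passed on p but not on size, at 1.71-fold (log2 0.78 ± 0.23, adjusted p = 0.014, edgeR), and without the second PBS tumor on both (log2 1.10, adjusted p = 0.0053). Tnfsf18, the GITR ligand, was 0.612 and 0.503 CPM with PBS, 0.112 and 0.504 CPM with CDN2 and 0.818 and 1.198 CPM with exoCDN2, and was not changed in either comparison (adjusted p = 0.43 and 0.40, edgeR).

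Markers of some immune cell types moved with these values. The summed CPM of 8 dendritic cell markers overlapped, from 34.9 to 40.7 with PBS, from 34.5 to 37.3 with CDN2 and from 37.1 to 41.1 with exoCDN2. The summed CPM of 10 T cell markers was 6.49 and 6.52 in the PBS tumors of 2 doses, from 24.9 to 28.4 with CDN2 and from 50.2 to 65.2 with exoCDN2. Of the 10 markers, 8 and 9 rose, where 20% and 8.87% of all tested genes were higher. The summed CPM of 8 macrophage and monocyte markers was from 71.2 to 99.7 with PBS, from 445 to 1142 with CDN2 and from 395 to 646 with exoCDN2. Of these 8, 6 rose and 1 fell with CDN2, and 6 rose and 0 fell with exoCDN2. Ly6c2 had the highest counts among them (94 to 13906 over all tumors). Neutrophil markers (5 genes) were from 1.53 to 1.90 CPM with PBS, from 189 to 835 CPM with CDN2 and from 17.4 to 56.8 CPM with exoCDN2, while melanocyte markers were lower with CDN2 (7406 and 12880 CPM) than with PBS (23520 and 23860 CPM). NK cell markers (5 genes) were from 20.4 to 28.3 CPM with exoCDN2 and from 8.07 to 11.1 CPM with CDN2, B cell markers stayed between 1.12 and 2.07 CPM in the 6 tumors, and their part in the results was not tested.

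exoCDN2 and CDN2 (20 µg) differed after 2 doses at Tnfrsf9 and Tnfrsf18, 2 of 8 members, both lower with exoCDN2. Of all tested genes, 19.4% were changed and 12% were lower with exoCDN2, so the count of 2 of 8 was near the share of all genes. Tnfrsf9 was 2.82-fold lower with exoCDN2 (log2 -1.49 ± 0.46, adjusted p = 0.027, edgeR), and Tnfrsf18 was 2.24-fold lower (log2 -1.16 ± 0.37, adjusted p = 0.028, edgeR). Cd27 was in the other order, 2.24 and 1.89 CPM with exoCDN2 above 1.12 and 0.955 CPM with CDN2, without passing the test (log2 0.99, 95% interval from -0.41 to 2.39, adjusted p = 0.24, edgeR). For Tnfrsf4 the difference was log2 -0.06, with a 95% interval from -0.91 to 0.78. Cd40, at 7.98 and 6.16 CPM with exoCDN2, overlapped the CDN2 tumors (log2 -0.90, 95% interval from -1.87 to 0.08, adjusted p = 0.13, edgeR), and without the second CDN2 tumor it passed (log2 -1.49, adjusted p = 0.0027), as did Tnfsf18 (log2 3.18, adjusted p = 0.03, edgeR). Without the first CDN2 tumor the log2 values were -1.45 for Tnfrsf9 (adjusted p = 0.088) and -0.64 for Tnfrsf18 (adjusted p = 0.24), without the second exoCDN2 tumor -1.15 (adjusted p = 0.18) and -0.86 (adjusted p = 0.19), and in a fit of these 4 tumors alone neither passed (adjusted p = 0.14 and 0.19, edgeR).

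The summed CPM of the T cell receptor genes Cd3d, Cd3e and Cd3g was 14.8 and 10.9 with 2 doses of exoCDN2, 4.54 and 3.69 with 2 doses of CDN2, and 0.653 and 0.241 with PBS. Set against it, Tnfrsf9 was 32.8 and 37.9 CPM per Cd3 CPM with CDN2, 4.33 and 3.56 with exoCDN2 and 7.16 and 11.1 with PBS. Per Cd3 transcript, Tnfrsf9 was thus above PBS of 2 doses with CDN2 and below it with exoCDN2, although in CPM it was above PBS with both. The PBS tumors of 1 dose had 3.46 and 2.18 CPM per Cd3 CPM, and both exoCDN2 tumors of 2 doses were above these. With 1 dose of CDN2 (100 µg) the ratios were 45.0 and 28.8, where Cd3 transcript was lowest among the treatments of 1 dose. Tnfrsf18 was 2.11 and 1.37 CPM per Cd3 CPM with 2 doses of CDN2, 0.266 and 0.237 with exoCDN2 and 2.09 and 4.55 with PBS, and the exoCDN2 tumors were the lowest 2 of the 6. Cd27, which is carried by many resting T cells, varied least of the 4 receptors in these 6 tumors, at 0.247 and 0.259 with CDN2, 0.151 and 0.174 with exoCDN2 and 0.182 and 0.469 with PBS. Scaled to Ptprc, the pan-leukocyte CD45 gene, Tnfrsf9 was 3.23 and 3.20 with CDN2, 0.575 and 0.508 with exoCDN2 and 0.398 and 0.517 with PBS, so the exoCDN2 and PBS tumors overlapped on that scale. These ratios are descriptions, the cells that made each transcript were not measured, and Cd3 counts were low with PBS.

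**Figure D4:**
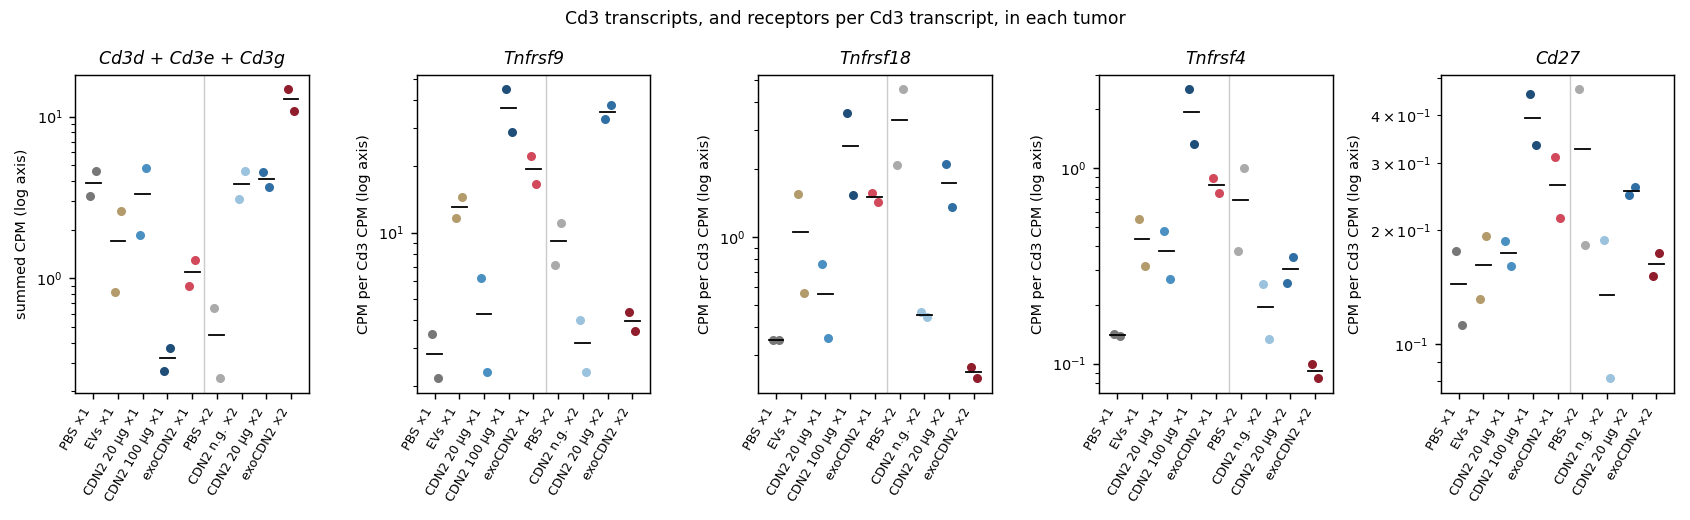
Summed CPM of Cd3d, Cd3e and Cd3g (first panel), and CPM of 4 receptors divided by it, in each of 18 tumors on log axes; points are tumors and bars the mean of 2. Tnfrsf9 per Cd3 transcript was 32.8 and 37.9 after 2 doses of CDN2 (20 µg) and 4.33 and 3.56 after 2 doses of exoCDN2, where Cd3 transcript was highest.

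Between the first and second dose of CDN2, 2 of 8 members rose (20.8% of all genes were changed, 14.4% higher), a count near the share of all genes. Tnfrsf9 went from 11.6 and 11.2 CPM to 149 and 139.7 CPM, a 12.7-fold rise (log2 3.67 ± 0.51, adjusted p = 0.00082, edgeR), and Tnfrsf18 from 1.41 and 1.72 CPM to 9.58 and 5.04 CPM, a 4.66-fold rise (log2 2.22 ± 0.38, adjusted p = 0.0018, edgeR). Tnfrsf18 was not called in a fit of these 4 tumors alone (log2 2.24, adjusted p = 0.062, edgeR). For Cd40 the difference between the doses of CDN2 was log2 -0.08, with a 95% interval from -1.05 to 0.88, and without the first tumor of 2 doses it was log2 -1.19 (adjusted p = 0.035, edgeR).

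Between the first and second dose of exoCDN2, 1 of 8 members rose (7.44% of all genes were changed, 5.1% higher), a count near the share of all genes. Cd27 went from 0.278 and 0.276 CPM to 2.24 and 1.89 CPM, 7.39-fold (log2 2.88 ± 0.69, adjusted p = 0.02, edgeR). The call was lost without the first or second tumor of 1 dose and without the first of 2 doses (adjusted p = 0.17, 0.13 and 0.12, with log2 values of 2.89, 2.88 and 2.76). Tnfrsf9 went from 20.0 and 21.5 CPM to 64.1 and 38.8 CPM, without overlap, and did not pass (log2 1.31 ± 0.47, adjusted p = 0.088, edgeR). It was called by DESeq2 (log2 1.26, adjusted p = 0.037), without the filter on low counts (adjusted p = 1.5e-07, edgeR) and in a fit of these 4 tumors alone (adjusted p = 0.024, edgeR). The fit without the filter also called Tnfrsf9 for unloaded EVs against PBS (adjusted p = 6.3e-05, edgeR), where the tumors overlapped. Tnfsf4 had the largest difference downward, from 0.951 and 1.17 CPM to 0.195 and 0.268 CPM (log2 -2.17 ± 0.72, adjusted p = 0.068, edgeR), and Cd40 went from 16.4 and 14.5 CPM to 7.98 and 6.16 CPM (log2 -1.13 ± 0.45, adjusted p = 0.12, edgeR). T cell markers rose between these groups at 8 of 10 genes, and their part in the Cd27 value was not tested.

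PBS tumors of 2 doses differed from those of 1 dose at 0 of 8 members (1.1% of all genes, 1769 at an unadjusted p under 0.05), by edgeR's test, yet the median difference of the members was log2 -1.28, against 0.01 over all genes. Tnfrsf9 (log2 -1.52, adjusted p = 0.22), Cd40 (log2 -1.40, adjusted p = 0.29) and Tnfrsf4 (log2 -1.16, adjusted p = 0.33) were lower in both PBS tumors of 2 doses than in both of 1 dose, as were Cd27 (log2 -1.60, adjusted p = 0.48) and Tnfsf4 (log2 -2.06, adjusted p = 0.51, edgeR). T cell markers were lower too, with a median of log2 -2.77, Cd3e lower by edgeR's test (log2 -3.38, adjusted p = 0.03) and the summed Cd3 CPM at 0.653 and 0.241 against 3.24 and 4.58, and their part in these values was not tested. Each second dose was therefore also tested relative to that of PBS, as an interaction. With CDN2, Tnfrsf9 and Tnfrsf18 were changed (2 of 8 members, against 16.8% of all genes, 11.7% higher), and Cd40 passed as well without the second tumor of 2 doses of CDN2 (log2 1.88, adjusted p = 0.0063) and Cd27 without the first PBS tumor of 2 doses (log2 4.41, adjusted p = 0.025, edgeR). The count of 2 of 8 with CDN2 was near the share of all genes. Tnfrsf18 lost its call in 3 of 15 alternatives. With exoCDN2, Tnfrsf9 and Cd27 were changed (2 of 8, against 6.82%, 5.12% higher), and each of these calls was lost in 6 of the 8 fits that left out 1 tumor.

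TRAF adaptors and NF-kB genes, the signalling arm of these receptors, were a list of 23 genes, all tested. After 1 dose, 8 rose with CDN2 (20 µg), 5 with CDN2 (100 µg) and 8 with exoCDN2, and 0 fell, with medians of log2 0.94, 0.49 and 0.69. Of all tested genes, 3.14%, 2.46% and 2.62% were changed in the same order. The NF-kB inhibitor gene Tnfaip3, which encodes the deubiquitinating enzyme A20, rose with exoCDN2 (log2 3.50 ± 0.41, adjusted p = 0.00054), as did Nfkbie, encoding IkB-epsilon (log2 3.24 ± 0.32, adjusted p = 0.00015, edgeR), and Birc3, encoding the ubiquitin ligase cIAP2 that TRAF2 recruits (log2 2.98 ± 0.38, adjusted p = 0.00087). After 2 doses 10 rose with CDN2 and 5 with exoCDN2, where 20% and 8.87% of all tested genes were higher, with medians of log2 0.62 and 0.61. Traf1, an adaptor of 4-1BB, rose with CDN2 (log2 5.33 ± 0.63, adjusted p = 8.9e-05) and with exoCDN2 (log2 3.02 ± 0.59, adjusted p = 0.0042, edgeR). Traf1 was lower with exoCDN2 than with CDN2 (log2 -2.31 ± 0.54, adjusted p = 0.008, edgeR), as were Nfkbia (log2 -4.35) and Tnfaip3 (log2 -1.69), in a list where 5 of 23 were lower, against 12% of all tested genes. All lists were compared with the medians over all tested genes, which lay between log2 -0.04 and 0.03.

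Other TNF superfamily ligands and receptors (31 genes, 28 tested) gave 4 higher after 1 dose of CDN2 (20 µg) and 6 after exoCDN2, and 22 and 16 after 2 doses, with 0 lower. Of all tested genes, 2.26%, 2.2%, 20% and 8.87% were higher in the same order. The apoptosis-inducing ligand Tnfsf10 (TRAIL) rose with each of these 4, by log2 2.98, 3.84, 3.70 and 4.66. Tnfsf15 (TL1A), another T cell costimulatory ligand of this family, rose after 1 dose of CDN2 (log2 6.78 ± 0.91, adjusted p = 0.0012) and exoCDN2 (log2 7.08 ± 0.91, adjusted p = 0.00098, edgeR). After 2 doses, Fasl, the cytotoxic ligand of T and NK cells, rose with exoCDN2 (log2 6.24 ± 0.80, adjusted p = 0.0003, edgeR) and was higher with exoCDN2 than with CDN2 (log2 1.79 ± 0.57, adjusted p = 0.029, edgeR). The 6 CD28 and B7 genes gave 0 changed after 1 dose of CDN2 (20 µg) and 2 higher after exoCDN2, namely Cd80 (log2 2.57) and Cd86 (log2 2.12), ligands of CD28 on antigen presenting cells. After 2 doses 5 of 6 rose with CDN2 and 4 of 6 with exoCDN2, where the T cell receptors Cd28 (log2 4.30) and Icos (log2 2.89) were among them, and Cd28 was higher with exoCDN2 than with CDN2 (log2 1.84 ± 0.64, adjusted p = 0.041, edgeR).

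Across the 16 tumors, the tested genes whose centred log2 CPM lay closest to that of a member were found by the root mean square difference, as a description. For Cd40 these were Clec2d (0.33), Tent5a (0.36) and Csf1 (0.37), where Cd40 itself varied with an SD of 1.37. For Tnfrsf9 they were Ms4a4a (0.51), F10 (0.53) and Ifitm1 (0.53), against an SD of 1.61, and for Cd27 they were Ptpn22 (0.43), Hrh2 (0.50) and Cd247 (0.50), against an SD of 1.43. For Tnfrsf4 they were Parp3 (0.30), Mlkl (0.31) and Serpinb9 (0.33), for Tnfrsf18 Mfsd4b3 (0.33), Syk (0.39) and Gmfg (0.39), and for Tnfsf4 Tlr3 (0.60), Gm43196 (0.61) and Gm26797 (0.65). The tumors share groups of 2, depth and cell makeup, so likeness over them is not independent of treatment.

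In the tumors given 2 doses of CDN2 of an amount not given in the labels, the receptors stood near the level of PBS of 1 dose. Tnfrsf9 was 12.3 and 10.6 CPM, Cd40 2.78 and 3.14 CPM, Tnfrsf4 0.792 and 0.612 CPM, Tnfrsf18 1.44 and 2.02 CPM and Cd27 0.578 and 0.373 CPM. In a fit of all 18 tumors 0 of 8 members differed from PBS of 2 doses (0.959% of 17109 genes were changed, 1787 at an unadjusted p under 0.05), by edgeR's test, while DESeq2 called Cd40 and Tnfrsf9. The differences were log2 1.64 ± 0.46 for Tnfrsf9 (adjusted p = 0.15) and log2 1.57 ± 0.47 for Cd40 (adjusted p = 0.18, edgeR).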

How the data were processed

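Tumor RNA was sequenced on an Illumina HiSeq. Per the study's methods, quality-filtered reads were mapped by the authors to GRCm38 using OSA (OmicSoft ArraySuite), and RSEM gave expected counts per gene on Ensembl R88 models, which were deposited without normalization. Between 8.75% and 12.7% of a tumor's values were not whole, and all were rounded before testing. GENCODE M21 (GRCm38) supplied symbols for 50376 of 50600 identifiers, and positions.

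In R 4.3.3, edgeR 4.0.16 kept genes with filterByExpr (minimum count 10, minimum total 15) and scaled libraries with TMM. A single quasi-likelihood fit with 1 coefficient for each of 8 groups took in 16 tumors, its common biological coefficient of variation was 0.22 and it left 8 residual degrees of freedom. The Benjamini-Hochberg adjustment ran over all genes tested, and the limits (adjusted p under 0.05, ratio over 2) were those of the study, which used DESeq2. The tumors of unlabelled amount entered a fit of 18 tumors only. The procedure was tested on simulated counts.

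The members and gene lists were chosen with earlier results of these data known. Named genes were all members, of each other list at most 3 higher and 3 lower with the smallest p among those changed in a comparison, and the 3 genes most like each changed member; not all are printed. The alternatives tried were DESeq2 1.42.0, RLE factors, no filter, only the groups compared, all 18 tumors, PBS tumors pooled, no ratio limit, the replicate number as a block, Ptprc in place of Cd3, likeness over 18 tumors, and each tumor left out in turn. Same-numbered tumors were checked for pairing by correlating their deviations from the group mean across genes, and the labels and methods name no shared animal or batch.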

Additional observations from a re-analysis of the deposited data

Results flagged for a closer look

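4 second-dose changes of members differed from the second-dose change of PBS by the interaction test of edgeR's model, with Benjamini-Hochberg adjustment over 16927 genes. They were 2 of 8 tested members with CDN2, against 16.8% of all genes (11.7% higher), and 2 of 8 with exoCDN2, against 6.82% (5.12% higher). The count with CDN2 was near the share of all genes. Tnfrsf9 after CDN2 (20 µg) was log2 5.20 ± 0.70 (SE) above the change of PBS (adjusted p = 0.0018), since it rose from 11.6 and 11.2 to 149 and 139.7 CPM while PBS went from 11.2 and 9.96 to 4.67 and 2.67 CPM. This was called under each of the 15 alternatives, between log2 4.83 and 5.63. Tnfrsf18 after CDN2 was log2 2.38 ± 0.54 above it (adjusted p = 0.011), and was not called without the first tumor of 1 dose of CDN2 (adjusted p = 0.054), without the second PBS tumor of 1 dose (adjusted p = 0.057) or in a fit of only the groups compared (adjusted p = 0.053, edgeR).

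Tnfrsf9 after exoCDN2 was log2 2.83 ± 0.67 above the change of PBS (adjusted p = 0.025, edgeR). Cd27 after exoCDN2 was log2 4.48 ± 1.00 above it (adjusted p = 0.018, edgeR), with 14 and 12 counts after the first dose, 115 and 134 after the second, and 2 counts in 1 PBS tumor. Each of these exoCDN2 calls was lost in 6 of the 8 fits that left out a tumor, the exceptions being the second exoCDN2 tumor and the first PBS tumor of 2 doses, with adjusted p up to 0.12 for Tnfrsf9 and 0.089 for Cd27 (edgeR). Without that PBS tumor the Cd27 value was log2 6.43, and without the other it was 3.70. The lower PBS levels at 2 doses enter all 4 values.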

How the results depend on the processing

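With 2 tumors per group, the tests rest on the shared spread. Genes with a median under about 20 counts per tumor (Cd27 at 17.5, Tnfsf4 at 10) or at the limit of detection (Cd40lg, Cd70) allow little. Under every alternative run, Cd40, Tnfrsf4, Tnfrsf9 and Tnfrsf18 stayed called with 2 doses of CDN2 (20 µg) against PBS, Cd40, Tnfrsf4 and Tnfrsf9 with 2 doses of exoCDN2, and Tnfrsf9 between the doses of CDN2. The number of members changed moved in other comparisons, and the cause was not tested except where fewer tumors were fitted. These numbers are given without the share of all genes called under the same setting. They therefore describe dependence on the setting and are not a result about the members. DESeq2 gave 1 in place of 0 for CDN2 (100 µg) against PBS, 2 in place of 1 for the second against the first dose of exoCDN2, 1 in place of 0 for that of PBS and 2 in place of 0 for CDN2 of unlabelled amount. Without the filter on low counts, the number was 1 in place of 0 for unloaded EVs, 2 in place of 0 for CDN2 (100 µg), 2 in place of 1 for 1 dose of exoCDN2, 6 in place of 5 for 2 doses (adding Tnfsf4), 3 in place of 2 for exoCDN2 against CDN2 after 2 doses (adding Tnfsf18), 1 in place of 0 for CDN2 at 100 µg against 20 µg, 4 in place of 1 for the doses of exoCDN2, 2 in place of 0 for those of PBS, 4 in place of 2 for the second dose of CDN2 relative to PBS and 2 in place of 0 for CDN2 of unlabelled amount. In a fit of only the groups compared, it was 3 in place of 0 for CDN2 (100 µg), 3 in place of 1 for 1 dose of exoCDN2, 4 in place of 6 for 2 doses of CDN2, 0 in place of 2 for exoCDN2 against CDN2 after 2 doses, 1 in place of 2 for the doses of CDN2, 4 in place of 1 for those of exoCDN2, 1 in place of 2 for the second dose of CDN2 relative to PBS and 1 in place of 0 for CDN2 of unlabelled amount. With the 4 PBS tumors pooled, 1 dose gave 2 in place of 1 for CDN2 (20 µg), 1 in place of 0 for CDN2 (100 µg) and 2 in place of 1 for exoCDN2, and 2 doses of CDN2 gave 4 in place of 6. Without the ratio limit 2 doses of CDN2 gave 7 in place of 6. Same-numbered tumors shared only a number: their deviations correlated at 0.0067 on average over pairs of groups (from -0.18 to 0.31), and at -0.13 between 2 doses of CDN2 and both PBS of 2 doses and CDN2 of 1 dose. The replicate block gave 2 in place of 1 members for the doses of exoCDN2, adding Tnfsf4 (log2 -2.22, adjusted p = 0.049, edgeR), and changed no other call. A block with crossed numbers, chosen after seeing the data, was run for the 2 comparisons at -0.13 and left their counts at 6 and 2. Tnfsf9 with 1 dose of exoCDN2 turned sign with DESeq2 (log2 0.000844), RLE factors (0.00038) and pooled PBS tumors (0.0755), Tnfrsf18 with unloaded EVs without the filter (-0.00627) and with the block (-0.00633), and Tnfrsf9 at 100 µg against 20 µg without the filter (-0.00673), none of them called.

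Leaving out 1 tumor at a time gave 0 to 1 members for 1 dose of CDN2 (20 µg) and of exoCDN2, 0 for exoCDN2 against unloaded EVs, 5 to 6 for 2 doses of CDN2, 3 to 5 for 2 doses of exoCDN2, 0 to 4 for exoCDN2 against CDN2 after 2 doses, 2 to 3 for the doses of CDN2, 0 to 1 for those of exoCDN2, 1 to 3 for the second dose of CDN2 relative to PBS, 0 to 2 for that of exoCDN2, and 0 for the others, a lone tumor being assumed to vary like the other groups. Leaving out 1 tumor at a time turned the sign of differences that had not been called, with these log2 ranges. For unloaded EVs against PBS Tnfrsf18 -0.23 to 0.27, Tnfrsf4 -0.27 to 0.59, Tnfrsf9 -0.14 to 1.83, Tnfsf18 -1.13 to 0.45, Tnfsf4 -1.83 to 0.062, Tnfsf9 -0.085 to 0.43. For 1 dose of CDN2 (20 µg) against PBS Cd27 -0.64 to 0.53, Tnfrsf18 -0.037 to 0.46, Tnfsf18 -1.40 to 0.35. For CDN2 (100 µg) against PBS Tnfrsf4 -0.15 to 0.36. For 1 dose of exoCDN2 against PBS Tnfsf9 -0.13 to 0.065. For exoCDN2 against unloaded EVs Cd27 -0.84 to 1.34, Tnfrsf9 -0.86 to 1.11, Tnfsf9 -0.46 to 0.049. For exoCDN2 against CDN2 after 1 dose Cd40 -0.24 to 0.70, Tnfrsf18 -0.15 to 0.23. For CDN2 at 100 µg against 20 µg Tnfrsf9 -0.094 to 0.085, Tnfsf4 -0.17 to 1.41. For exoCDN2 against CDN2 after 2 doses Cd40 -1.49 to 0.19, Tnfrsf4 -0.42 to 0.27, Tnfsf4 -1.11 to 1.07. For the second against the first dose of CDN2 Cd40 -1.19 to 0.49, Tnfrsf4 -0.10 to 0.45, Tnfsf18 -2.27 to 0.44, Tnfsf4 -2.16 to 0.43. For the second against the first dose of PBS Tnfrsf18 -0.38 to 0.12, Tnfsf18 -0.47 to 0.031, Tnfsf9 -0.58 to 0.0496. For the second dose of CDN2 relative to PBS Tnfsf18 -2.04 to 0.68, Tnfsf4 -0.11 to 2.49, Tnfsf9 -0.19 to 0.44. For the second dose of exoCDN2 relative to PBS Tnfsf4 -1.17 to 0.75.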

Other observations

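Of 4 markers of regulatory T cells, which carry OX40 and GITR, 3 were tested. Ikzf2 had the highest counts over the tumors (82 to 662), against 9 to 188 for Il2ra, 2 to 42 for Foxp3 and 0 to 12 for Ccr8. The summed CPM of the 4 was from 4.55 to 4.81 with 1 dose of PBS, from 14.2 to 16.2 with CDN2 (20 µg) and from 16.8 to 20.3 with exoCDN2. By edgeR's test 1 of 3 rose with CDN2 and 2 of 3 with exoCDN2, where 2.26% and 2.2% of all tested genes were higher. The 10 T cell markers had medians of log2 0.21 with that dose of CDN2 and -1.22 with exoCDN2, and 0 were changed in either. After 2 doses the regulatory T cell sums were from 2.45 to 5.18 CPM with PBS, from 11.0 to 11.4 with CDN2 and from 10.75 to 12.99 with exoCDN2. With each, 2 of 3 rose, where 20% and 8.87% of all tested genes were higher. Whether the number of regulatory T cells differed was not tested. Dendritic cell markers (8 genes) summed to between 30.1 and 74.3 CPM in all 18 tumors, a sum in which Fscn1 had the highest counts (490 to 2229). Single markers moved by edgeR's test. With 2 doses of CDN2 against PBS, 1 of 7 tested markers rose and 1 fell, the latter being Flt3 (log2 -3.04, adjusted p = 0.012, edgeR). For exoCDN2 against CDN2 after 2 doses, Ccr7 was lower (log2 -1.45, adjusted p = 0.025) and Itgax higher (log2 1.94, adjusted p = 0.032, edgeR).

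Skeletal muscle markers (5 genes) summed to 1827 and 3578 CPM with 2 doses of CDN2 (20 µg) and to between 3.77 and 490.8 CPM in the other tumors. Endothelial cell markers summed to 32.7 and 34.6 CPM with 1 dose of CDN2 (20 µg), against 88.6 and 90.8 CPM with PBS, and 4 of the 5 fell by edgeR's test. Fibroblast markers summed to between 859 and 1802 CPM with 2 doses of CDN2, against 357 CPM in each PBS tumor. Keratinocyte markers lay between 0.0533 and 115.4 CPM, with 62.2 and 115.4 CPM in the PBS tumors of 1 dose. Their part in the members' values was not tested.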
